A study of Mus musculus with 21 samples.

Results

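Gene expression in the ventricles was compared between mice given polystyrene nanoplastics, plastic particles of nanometre size, and mice given distilled water. For each mouse the counts of its right ventricular and left ventricular libraries were added and the library of the atrial section was left out, so that 1 value stood for each animal. The sums use 14 of the 21 libraries of the series and cover all 7 mice, 4 in the nanoplastics group and 3 in the control group. All were adult male wild-type mice, treated for 8 weeks, and the labels number them as separate animals. The labels leave particle size, dose, route and strain unstated. The title of the series concerns the rhythm of heart muscle cells, and the mouse hearts show the transcripts of the whole organ.

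Ventricular muscle contracts without rest and draws most of its ATP from mitochondria. The respiratory chain is assembled from subunits of both the nuclear and the mitochondrial genome: complexes I, III and IV move protons across the inner membrane, and complex V, the ATP synthase, uses that gradient. Fatty acids are the main fuel of the adult heart, and the nuclear receptor PPARα switches on many genes of their uptake and oxidation.

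The sums of the controls held 4481882, 3920021 and 1746569 counts, and those of the nanoplastics mice 2212902, 1045771, 2027874 and 1362674. The ventricles did not enter them equally. The right ventricle gave 45.6, 45.7 and 76.3% of the counts of control mice 1, 2 and 3, and 23.6, 0.446, 40.1 and 32.1% in nanoplastics mice 1, 2, 3 and 4, so the groups did not overlap (exact permutation test, two-sided, p = 0.0571, and 0.129 after adjustment over 18 library measures). The right ventricular library of nanoplastics mouse 2 held only 4662 counts. Genes detected were 16008, 16096 and 13915 in controls and 13726, 12034, 13699 and 13271 in nanoplastics mice. Transcript length differed too. The median annotated length per count was 1697, 1735 and 1756 nt in controls and 1486, 1526, 1597 and 1515 nt in nanoplastics mice, without overlap (exact permutation p = 0.0286, the smallest this design allows, adjusted p = 0.129). Gene lists are described by counts, medians and summed levels, and a p beside a summed list or share is that of 1 of the 18 library measures. RNA from tissue cannot tell fewer cells of a type from less RNA per cell.

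The heart muscle markers Myl2 and Tnnt2 were high in all 7 sums. Myl2, the ventricular regulatory myosin light chain, stood at 7538 to 13747 CPM (counts divided by the library total and put on a common scale), and Tnnt2, cardiac troponin T, at 12386 to 16022 CPM. The ventricular markers Irx4 and Hey2 were low, at 2.47 to 5.74 CPM and 0 to 1.48 CPM. The atrial muscle genes Myl7, Myl4 and Sln together gave 6.25, 10.5 and 17.7 CPM in the controls and 6.33, 13.4, 7.89 and 1121 CPM in the nanoplastics mice. The high value belonged to nanoplastics mouse 4, with 1605 CPM in its left and 100 CPM in its right ventricular library. Bmp10, another atrial gene, had 0 counts in 5 mice, that one included. With 2 counts over all 7 sums it was too low to compare the mice. Red cell markers ranged from 336 to 1199 CPM in controls and from 699.96 to 2203 CPM with nanoplastics. On library totals the fibroblast, endothelial and macrophage lists overlapped between the groups. The list of smooth muscle and pericyte markers did not (1079 to 1198 CPM against 765 to 890 CPM, exact permutation p = 0.0286, adjusted p = 0.129). After the TMM scaling used for the gene results below, the fibroblast list did not overlap either. It then stood at 1386, 1331 and 1577 CPM in controls and 1634, 2115, 1825 and 1704 CPM in nanoplastics mice. Dcn gave most of that sum, and its groups overlapped on library totals, at 817 to 991 and 875 to 1306 CPM. Of the 18 members tested below, 9 had a positive log2 change, 0 passed the test, and in 1 every nanoplastics mouse was above every control. The part of these markers in the gene results was not tested.

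The groups differed by modest changes in a small share of genes. Of 7094 genes tested with the quasi-likelihood test of edgeR, 137 passed a Benjamini-Hochberg adjusted p of 0.05 (1.93%), and 1190 had an unadjusted p under 0.05. Changes are given as log2 of nanoplastics over control with their standard error (SE), and levels of single genes from here on are CPM after TMM scaling, edgeR's trimmed mean of M-values. The 105 genes that rose (1.48%) included 27 cytosolic ribosomal proteins, 20 nuclear subunits of the respiratory chain, 5 genes of the mitochondrial genome and 3 filament proteins, and 30 of the 105 (28.6%) had symbols of predicted genes or pseudogenes, beside 471 of all 7094 (6.64%). The share of counts on annotated pseudogenes was 1.00 to 1.08% in controls and 1.13 to 1.33% in nanoplastics mice, without overlap (exact permutation p = 0.0571, adjusted p = 0.129). Among the 32 that fell (0.451%) were the nuclear RNAs Neat1 and Malat1 and the receptor gene Ppara. Risen genes had a median log2 change of 0.58 and fallen genes of -0.84, beside -0.03 over all genes tested. In 104 of the 105 risen genes every nanoplastics mouse lay above every control (7.57% of all tested genes), the exception being Rpl38, and all 32 fallen genes were separated the other way (7.61%).

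The number of calls rested on single mice and on the scaling. Without control mouse 2 it dropped to 2, mt-Nd4 and Neat1. Without control mouse 3 it was 25, without nanoplastics mouse 1 it was 9, and without nanoplastics mouse 2 it was 10. TMM sets the bulk of the genes equal between sums. With library totals alone the median of all genes moved from -0.03 to -0.28, and the calls moved to 14 higher and 416 lower, so every direction given here is relative to the other genes of the sum. With the right ventricular share of each sum as a covariate edgeR called 0 genes at the adjusted threshold and 738 at an unadjusted p under 0.05.

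**Figure D1:**
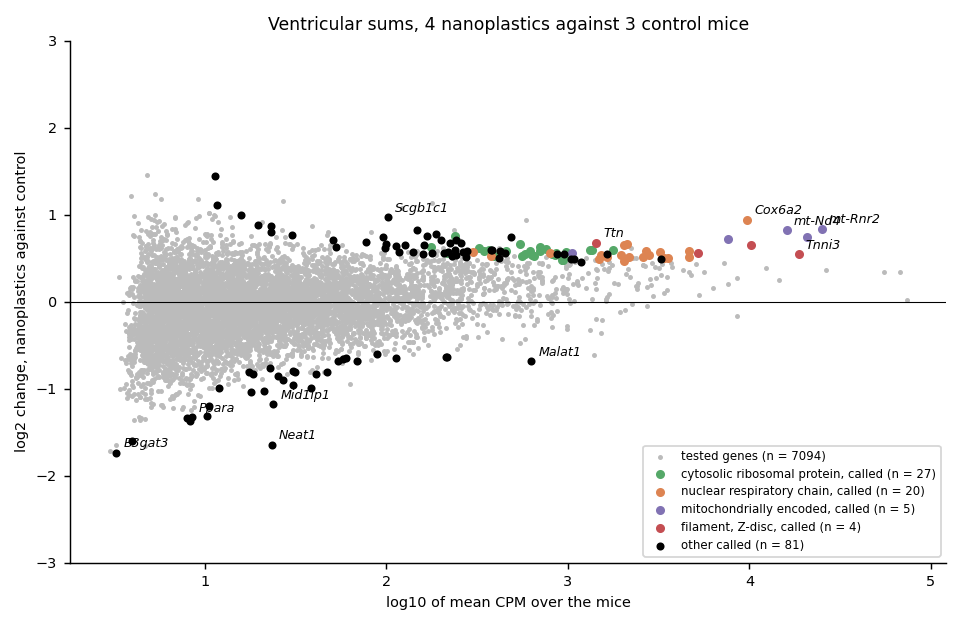
Each point is a gene tested in the ventricular sums. The x axis is log10 of its mean CPM over the 7 mice and the y axis its log2 change, nanoplastics against control. Coloured and black points are the 137 called genes, grey points the others. Most called genes of the ribosome and the respiratory chain lie between 0.4 and 1 on the y axis at high levels, and the fallen genes lie mostly at low levels.

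Transcripts of the mitochondrial genome rose in part. Of 10 tested members of that list, 5 rose and 0 fell, with a median log2 change of 0.46, or 0.20 with library totals and 0.36 with a trend on transcript length removed. mt-Rnr2, the large ribosomal RNA of mitochondria, stood at 19721, 15309.6 and 16589 CPM in the controls and 37150.0, 31494, 29199 and 25269 CPM in nanoplastics mice 1 to 4. All nanoplastics mice were above all controls (log2 change 0.84, SE 0.13, adjusted p = 0.00472). The small ribosomal RNA mt-Rnr1 was at 6003, 5214 and 5397 CPM against 10067, 9769, 8293 and 8397 CPM, again without overlap (0.72, SE 0.12, adjusted p = 0.00541). Both changes were larger in the right ventricle than in the left in size, 1.58 against 0.37 on the log2 scale for mt-Rnr2 and 1.17 against 0.45 for mt-Rnr1, and whether the ventricles differ was not tested. In the right ventricular library of nanoplastics mouse 1 these RNAs made up 7.69% of the counts, and in the other libraries of the comparison 2.27 to 4.24%.

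Among the mitochondrial messenger RNAs, those of complex I subunits led. mt-Nd4 was at 10809, 12113 and 10485 CPM in controls and 16345, 21323, 18213 and 22824 CPM with nanoplastics, with the lowest nanoplastics mouse above the highest control (0.82, SE 0.13, adjusted p = 0.00472). mt-Nd2 was at 16290.1, 14743 and 13586 CPM against 23763, 26787, 24879.5 and 24277 CPM, and its 4 nanoplastics values lay close together (0.74, SE 0.11, adjusted p = 0.00472). mt-Nd3, another complex I subunit, also rose (0.55, adjusted p = 0.0303). The genes were not moved evenly: mt-Nd1 (0.34), mt-Nd5 (0.36), mt-Cytb of complex III (0.34), mt-Co1 of complex IV (0.02) and mt-Nd6 (-0.21) did not pass the test. The summed share of mitochondrially encoded counts overlapped between the groups, 24.7 to 31.0% in controls and 24.4 to 32.0% in nanoplastics mice. mt-Co2, mt-Co3, mt-Atp6, mt-Atp8 and mt-Nd4l had only 72, 41, 39, 6 and 19 counts over the 14 libraries and were not tested. How reads shared with near-identical nuclear copies were counted is unstated in the labels, so single mitochondrial genes are uncertain.

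**Figure D2:**
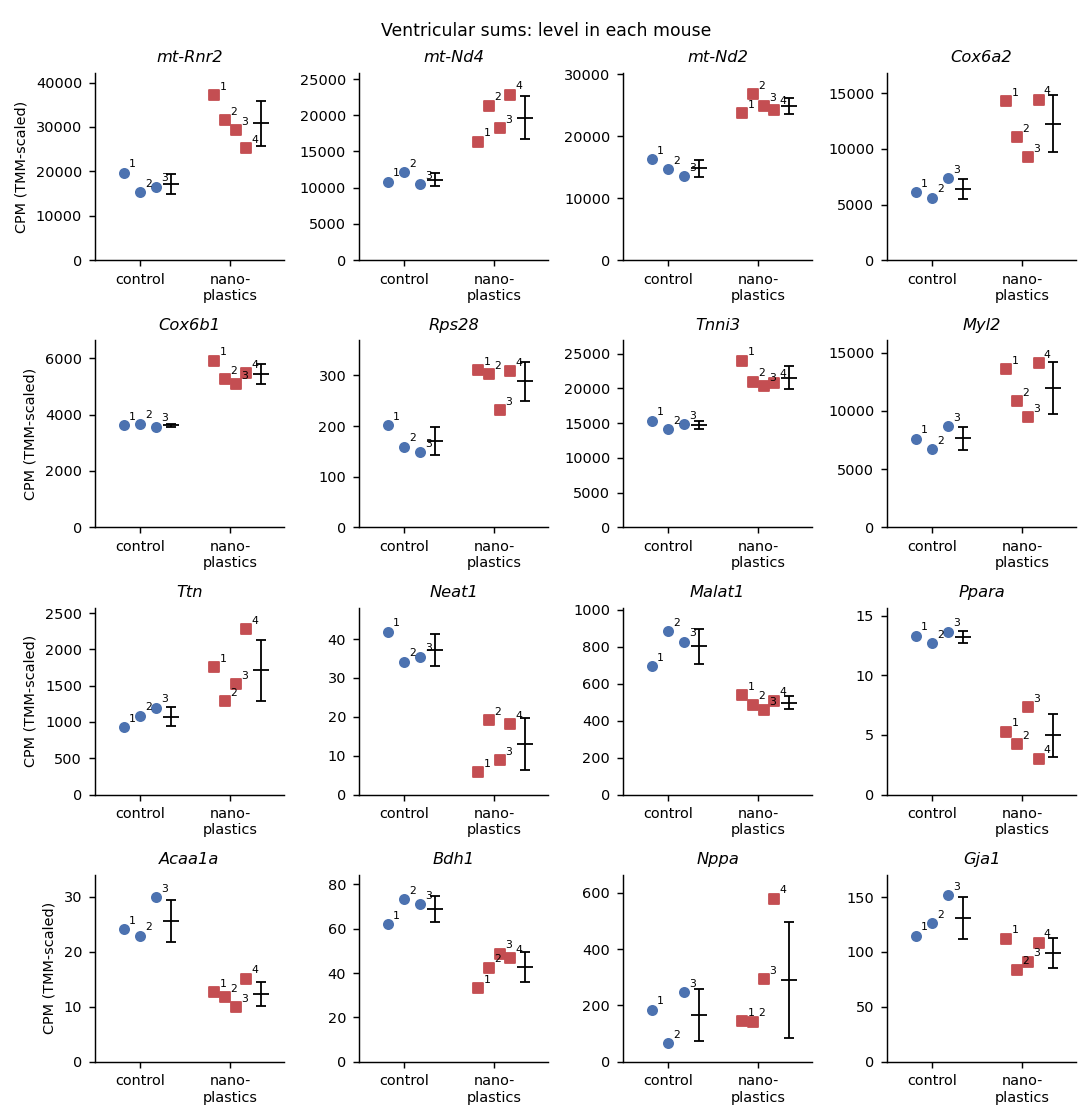
Level of 16 genes in each ventricular sum, in CPM scaled by TMM on an axis from 0. Circles are the 3 control mice and squares the 4 nanoplastics mice, numbered as in the labels, and the bar beside them is the mean with 1 SD. From mt-Rnr2 to Bdh1 the groups do not overlap, whereas those of Nppa do.

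Part of the nuclear genes of the respiratory chain rose as well. Of 38 tested complex I subunits 9 rose and 0 fell, with a median log2 change of 0.36 (0.10 with library totals and 0.26 with a trend on transcript length removed). Of 46 tested members of complexes II to V 11 rose and 0 fell, with a median of 0.34 (0.09 with library totals and 0.21 with the length trend removed). Of these 20 risen genes 19 had an annotated length, and 5 of them kept their call with the length trend removed. In 24 of the complex I genes and 28 of the others every nanoplastics mouse was above every control, beside 7.57% of all genes. Their median changes were 0.27 and 0.28 in the left ventricle alone, and 0.33 and 0.41 in the right ventricle without the library of 4662 counts.

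Cox6a2, the heart and muscle form of a complex IV subunit, had the largest change of the chain. Its level was 6109, 5617 and 7378 CPM in controls and 14299.6, 11063, 9238 and 14409.8 CPM in nanoplastics mice. The means were 6368 ± 908 and 12253 ± 2539.5 CPM (SD, n = 3 and 4), without overlap (log2 change 0.94, SE 0.15, adjusted p = 0.00541). It kept its call in 18 of 23 alternative analyses. Its counterpart of other tissues, Cox6a1, had a log2 change of 0.31 and did not pass (adjusted p = 0.241).

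Other complex IV subunits changed by less. Cox6b1 stood at 3624, 3681 and 3577 CPM in controls and 5911, 5249.8, 5086 and 5475 CPM with nanoplastics, with a narrow spread in both groups (0.58, SE 0.11, adjusted p = 0.0156). Cox8b, a subunit form of heart and muscle, was at 2773, 2429.9 and 2389 against 4144, 3631, 3564 and 3658 CPM (0.57, adjusted p = 0.0223). With the length trend removed Cox6b1 was at 0.30 (adjusted p = 0.157) and Cox8b at 0.16 (adjusted p = 0.514), so neither kept its call. Cox5b (0.51) and Cox7b (0.50) rose too. In complex V the risen genes were Atp5e (0.58), Atp5h (0.52), Atp5mpl (0.52), Atp5j2 (0.50) and Atp5md (0.47), and in complex III it was Uqcrh (0.54). The lowest values of the list were those of Cyc1 (-0.27), Uqcrc1 (-0.16), Uqcrfs1 (-0.09) and Sdha (-0.08), subunits that carry or support the catalytic steps of complexes II and III, and none of them passed the test.

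In complex I, Ndufv3 was at 1653, 1514 and 1582 CPM in controls and 2938, 2327, 2085 and 2637 CPM in nanoplastics mice (0.66, SE 0.13, adjusted p = 0.0156). Ndufa3 was at 1647, 1468 and 1514 against 2892, 2200.3, 2013 and 2613 CPM (0.65, adjusted p = 0.0187). For both genes nanoplastics mice 1 and 4 were highest. Ndufb4 (0.57), Ndufb1-ps (0.55), Ndufa7 (0.53), Ndufa2 (0.53), Ndufb2 (0.52), Ndufb11 (0.51) and Ndufs8 (0.49) rose by similar amounts, and Ndufa2 was at 0.24 with the length trend removed (adjusted p = 0.294). The core subunit Ndufv1 (0.03) did not pass.

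Respiratory chain genes that rose together are shown with the 100 bases before their start site, as promoters of genes that moved in the same direction. The sequences are from RefSeq on GRCm38.p6, 5′ to 3′ on the gene's strand, and capitals mark matches to motifs searched on both strands. The letters searched were CCAAT for the promoter element named after them, GGGCGG for the site known as the GC box, CCGGAAG for the factor known as GABPA and AANATGGC for YY1. Further searches used GCGCATGCG for the regulator NRF1, TCAAGGTCA for oestrogen-related receptors, TATAAA for the TATA box and CACGTG for the E-box. No motif contains another.
Ndufv3, chr17:31520015-31520114, plus strand: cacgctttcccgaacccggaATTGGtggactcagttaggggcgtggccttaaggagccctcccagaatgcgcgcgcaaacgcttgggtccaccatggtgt
Cox6b1, chr7:30626115-30626214, minus strand: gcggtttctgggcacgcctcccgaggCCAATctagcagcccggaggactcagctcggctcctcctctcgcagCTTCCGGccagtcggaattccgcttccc
Ndufa3, chr7:3617273-3617372, plus strand: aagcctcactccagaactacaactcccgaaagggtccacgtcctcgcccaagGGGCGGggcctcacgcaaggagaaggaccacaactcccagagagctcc
In Ndufv3 the capitals mark a CCAAT box on the opposite strand, in Cox6b1 a CCAAT box and a GABPA match, and in Ndufa3 a GC box. Of the 20 risen respiratory genes 16 had a promoter in the RefSeq table, and 12 of the 16 held CCAAT in the 250 bases before the start (75.0%), beside 29 of 68 respiratory genes tested (42.6%) and 37.2% of the 5506 tested genes with a promoter. GABPA letters were in 25.0% of the 16 and in 15.6% of all, YY1 letters in 12.5 and 4.7%, and TATA letters in 18.8 and 6.9%. The GC box was in 31.2% of the 16 and in 59.7% of all, and the E-box in 6.2 and 8.7%. NRF1 letters were in 0 of the 16, in 7 of the 68 respiratory genes tested (10.3%) and in 3.3% of all, and those of oestrogen-related receptors in 0 of the 16 and 0.2% of all. A match is a description of letters and not of a factor's binding.

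The cytosolic ribosome was the list with the most risen members. Of 83 genes 79 were tested, 27 rose and 0 fell. The median log2 change was 0.47, or 0.22 with library totals and 0.35 with the length trend removed, and 75 of the 79 values were positive. Every nanoplastics mouse lay above every control in 51 of them, beside 7.57% of all genes. Summed over the 83 members, the list stood at 47530.4, 41353 and 38188 CPM in controls and 60735, 57029, 50896 and 59963 CPM in nanoplastics mice after TMM scaling, without overlap. As a share of library totals the groups did overlap, at 4.85, 4.66 and 4.31% in controls and 5.21, 5.14, 4.79 and 5.84% in nanoplastics mice (exact permutation p = 0.0857, adjusted p = 0.171). With the length trend removed 7 of the 27 kept their call. The median change was 0.33 in the left ventricle and 0.60 in the right.

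Rps28 of the small subunit had the largest change, 201, 159.8 and 149 CPM in controls against 310.4, 303, 231 and 309 CPM (0.75, SE 0.15, adjusted p = 0.0183). Nanoplastics mouse 3 was nearest to the controls. Rpl32 was at 1123, 1022 and 915 CPM against 1689.7, 1613, 1332 and 1550.5 CPM (0.60, adjusted p = 0.0242). Rpl35 was at 779, 805 and 718 against 1184, 1146, 1034 and 1195 CPM (0.57, adjusted p = 0.0248). The other risen members had log2 changes from 0.48 (Rps7) to 0.66 (Rpl37a). Rpl8 (-0.27), Rpl9 (-0.07) and Rpl3l (-0.06), the muscle form of Rpl3, had negative values and did not pass. Ribosomal protein genes have many processed pseudogenes, and risen symbols such as Rps4x-ps (1.11), Rpl31-ps8 (0.71) and Rps16-ps2 (0.65) are near-identical to their parent genes, so how reads were split between them is uncertain.

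Ribosomal promoters are shown for 3 risen genes, in the same manner.
Rps28, chr17:33824563-33824662, minus strand: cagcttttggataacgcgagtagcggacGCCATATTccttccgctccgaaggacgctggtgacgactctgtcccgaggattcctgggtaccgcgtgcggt
Rpl35, chr2:39005132-39005231, minus strand: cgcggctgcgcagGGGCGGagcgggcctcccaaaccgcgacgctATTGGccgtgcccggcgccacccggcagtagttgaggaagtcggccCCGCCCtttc
Rpl37a, chr1:72711160-72711259, plus strand: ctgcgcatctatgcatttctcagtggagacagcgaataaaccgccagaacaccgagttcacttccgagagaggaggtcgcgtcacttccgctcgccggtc
The capitals mark a YY1 match in Rps28, 2 GC boxes and a CCAAT box in Rpl35, and Rpl37a held none of the motifs in these 100 bases. In the 250 bases before the start, GABPA letters were in 8 of the 16 risen ribosomal genes with a promoter, in 17 of 58 ribosomal genes tested (29.3%) and in 15.6% of all. YY1 letters were in 3 of the 16, CCAAT in 6 and the GC box in 7 (43.8%, beside 59.7% of all), and the other 4 motifs in none.

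Other lists of ribosomes and mitochondria were called at about the share of all genes (1.93%). Of 77 mitochondrial ribosomal proteins 2 rose, Mrpl52 (0.55, adjusted p = 0.0494) and Mrpl30 (0.49, adjusted p = 0.0362), and the median was 0.12. None of 43 translation factors passed in edgeR, 14 had an unadjusted p under 0.05 and DESeq2 called 1, and the median was 0.08. In the list of 38 genes of mitochondrial import and quality control only Micos13, of the complex that shapes the cristae, rose (0.50), and Tomm40, the import channel of the outer membrane, was at -0.84 (adjusted p = 0.0883).

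Filament genes of heart muscle rose in part. Of 12 tested genes of the thick and thin filament 3 rose and 0 fell, beside 1.48% of all genes that rose. The median was 0.41 (0.15 with library totals). Tnni3, cardiac troponin I, was at 15331, 14117 and 14867 CPM in controls and 23986, 21000.3, 20316 and 20819 CPM with nanoplastics (0.54, SE 0.11, adjusted p = 0.0223), and the groups were well apart. Myl2 was at 7629, 6696 and 8664 against 13573, 10820.2, 9435 and 14120.3 CPM (0.65, SE 0.14, adjusted p = 0.0273), with nanoplastics mouse 3 just above the highest control. Tnnc1, troponin C, was at 3279, 3948 and 5026 against 5836, 5867, 5291 and 6979.9 CPM (0.55, adjusted p = 0.0384), and control mouse 3 came close to nanoplastics mouse 3. With the length trend removed Tnni3 was at 0.40 (adjusted p = 0.0545), Myl2 at 0.48 (adjusted p = 0.0721) and Tnnc1 at 0.31 (adjusted p = 0.313), and all 3 missed the threshold. The other tested members ranged from Acta1, skeletal actin (-0.47, adjusted p = 0.571), to Myh7.

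Titin was the only one of 22 genes of the Z-disc, titin and M-band list that passed, beside 1.93% of all genes. Ttn, the giant spring of the sarcomere, stood at 931, 1083 and 1194 CPM in controls and 1756, 1286, 1521 and 2275 CPM in nanoplastics mice (0.68, SE 0.16, adjusted p = 0.0355). Nanoplastics mouse 4 was highest, and mouse 2 was nearest to the controls. The median of that list was 0.20, and -0.06 with library totals, so its sign follows the scaling. Tcap, the titin cap of the Z-disc, went the other way in value without passing (2145, 1842 and 1213 against 1135, 1059, 1381 and 969 CPM, -0.61, adjusted p = 0.06), and its groups overlapped.

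Among fallen genes the smallest adjusted p belonged to a nuclear RNA. Neat1, the long RNA on which nuclear paraspeckles form, stood at 42.0, 34.2 and 35.5 CPM in controls and 5.80, 19.1, 8.90 and 18.1 CPM in nanoplastics mice 1 to 4. The highest nanoplastics mouse was below the lowest control (log2 change -1.65, SE 0.27, adjusted p = 0.00566). It fell in the left ventricle alone (-1.74, adjusted p = 0.0414) and in the right (-1.43, adjusted p = 0.031), and kept its call in 21 of 23 alternative analyses. Malat1, another abundant nuclear RNA, was at 695, 883 and 826 against 539, 487, 457 and 509 CPM, without overlap (-0.69, SE 0.13, adjusted p = 0.013). The other 10 tested members of that list did not pass, among them the paraspeckle proteins Sfpq (-0.63) and Nono (0.17). Of 43 splicing factors, Snrpd2 rose (0.56) and no other passed, beside 1.93% of all genes, with a median of -0.17.

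Ppara fell, as 1 of 18 metabolic nuclear receptors and regulators, beside 1.93% of all genes. The receptor's transcript stood at 13.3, 12.7 and 13.7 CPM in controls and 5.27, 4.25, 7.33 and 3.02 CPM in nanoplastics mice (-1.33, SE 0.29, adjusted p = 0.0273). Every nanoplastics mouse was below every control, at sums of 61, 56 and 27 counts in controls and 10, 4, 14 and 4 counts in nanoplastics mice, and counting error alone is wide at such depth. In the left ventricle the change was -1.25 (adjusted p = 0.138) and in the right -1.59 (adjusted p = 0.113). No other member of its list passed, Esrra being at -0.90 (adjusted p = 0.0974), Thra at -0.88 (adjusted p = 0.057) and Rxra at -0.69 (adjusted p = 0.361). Its promoter is shown as that of the one called regulator.
Ppara, chr15:85735676-85735775, plus strand: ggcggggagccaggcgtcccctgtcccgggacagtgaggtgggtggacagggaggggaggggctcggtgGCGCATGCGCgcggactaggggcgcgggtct
The capitals mark overlapping NRF1 matches on both strands, letters held by 3.3% of all 5506 promoters.

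Lists of metabolic genes are too short for 0 or 1 call to be told from the 1.93% called among all genes. Of 37 tested genes of fatty acid uptake and oxidation 1 fell and 0 rose, with a median of 0.08. The fallen gene was Acaa1a, a thiolase of peroxisomal β-oxidation, at 24.0, 22.9 and 29.9 CPM in controls and 12.6, 11.7, 9.95 and 15.1 CPM in nanoplastics mice (-1.04, SE 0.23, adjusted p = 0.0273). Bdh1, which oxidises the ketone body β-hydroxybutyrate, was the one of 20 genes in the citrate cycle and ketone list to pass, at 62.1, 73.2 and 71.0 against 33.2, 42.5, 48.7 and 46.7 CPM (-0.69, SE 0.17, adjusted p = 0.0384). In both genes the groups were apart. With the length trend removed Acaa1a was at -0.92 (adjusted p = 0.0539) and Bdh1 at -0.57 (adjusted p = 0.105), so neither kept its call. None of 30 glycolysis and glucose uptake genes passed in edgeR, 9 had an unadjusted p under 0.05 and DESeq2 called 2. Hk1, hexokinase 1, was at 10.9, 11.6 and 11.7 against 3.69, 6.37, 4.71 and 9.80 CPM (-0.95, adjusted p = 0.0978). Chosen after their values were seen, further metabolic enzymes among the called genes were Acss1, mitochondrial acetyl-CoA synthetase (-0.83), and Hibadh, of valine breakdown (-0.63), which fell, and Ech1, of unsaturated fatty acid oxidation (0.49), which rose.

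Other falls came from scattered functions. Mid1ip1, a regulator of fatty acid synthesis, was at 32.6, 40.3 and 32.4 CPM in controls and 16.3, 17.0, 17.3 and 11.3 CPM in nanoplastics mice (-1.18, SE 0.21, adjusted p = 0.00882). Pfdn2, a subunit of the prefoldin chaperone, had means of 29.7 ± 2.58 CPM in controls and 14.9 ± 2.65 CPM in nanoplastics mice (SD, n = 3 and 4; log2 change -1.02, adjusted p = 0.0205). Serpinh1, the collagen chaperone HSP47, was at 43.5, 44.2 and 37.5 against 22.7, 21.2, 27.2 and 23.4 CPM (-0.81, adjusted p = 0.0273). None of these groups overlapped. Pfdn2 and Serpinh1 were the only called members of lists of 37 chaperones and 40 matrix genes, beside 1.93% of all genes. With the length trend removed Mid1ip1 and Pfdn2 kept their calls (adjusted p = 0.0164 and 0.0319) and Serpinh1 did not (adjusted p = 0.0539). Rhobtb1 (-1.32, adjusted p = 0.0187), Rab8a, a GTPase of vesicle transport (-1.21), Inppl1, the phosphatase SHIP2 (-1.37), and Akap8, a nuclear anchor of protein kinase A (-1.34), fell at levels below 20 CPM. B3gat3, of proteoglycan linker synthesis (-1.74, adjusted p = 0.0378), and Pias4, a SUMO ligase (-1.61, adjusted p = 0.047), rested on 4, 1, 2 and 3 and on 2, 3, 6 and 2 counts in the nanoplastics mice. Rhobtb1 kept its call with the length trend removed (adjusted p = 0.0393). Rab8a, Inppl1, Akap8, B3gat3 and Pias4 did not (adjusted p from 0.0539 to 0.0883). Dmpk, the myotonic dystrophy kinase, fell too (-0.96) and was chosen after its value was seen.

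**Figure D3:**
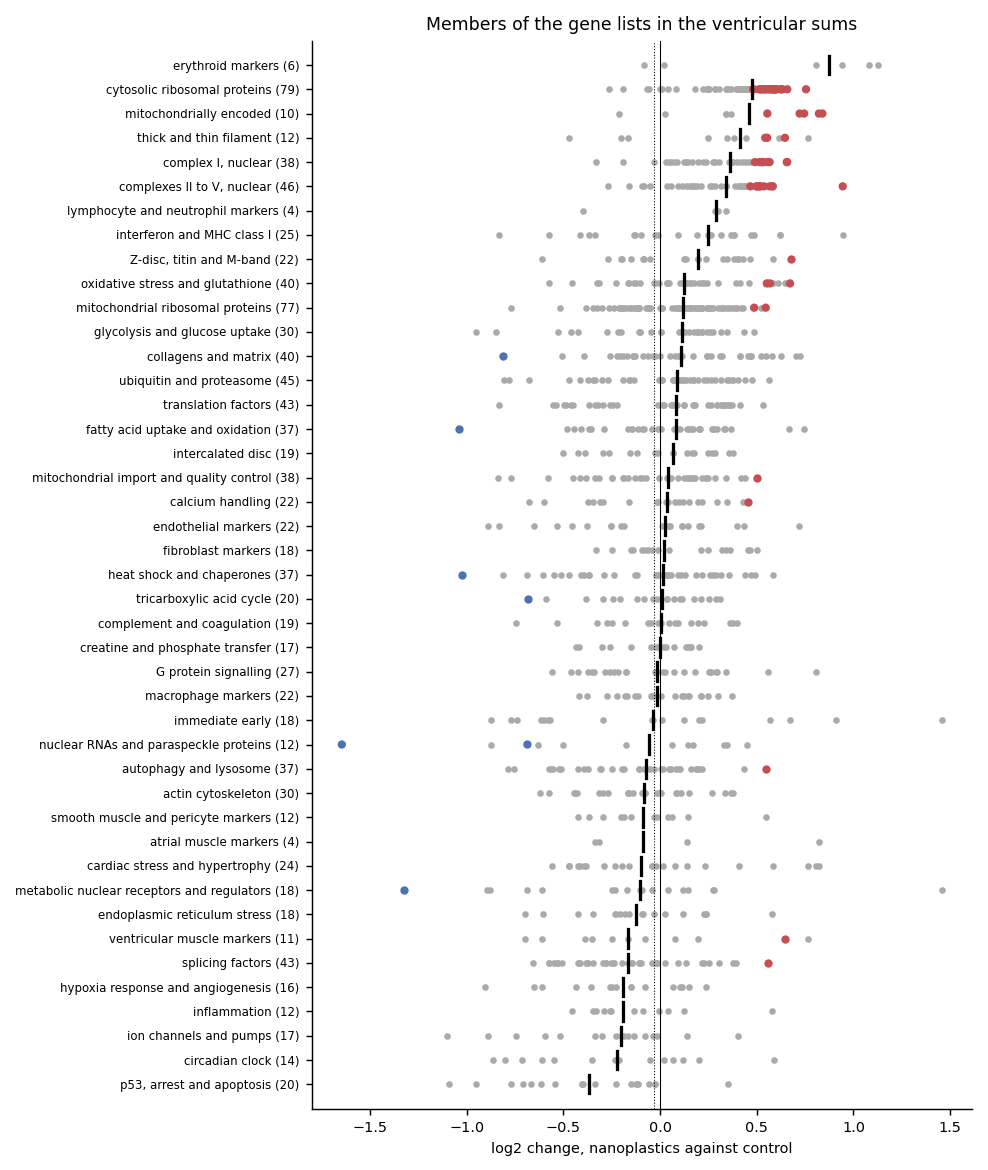
Log2 change, nanoplastics against control, of every tested member of the gene lists with at least 4 tested genes (number in brackets). Grey points did not pass, red points rose and blue points fell at an adjusted p of 0.05, black bars are list medians and the dotted line is the median of all tested genes, -0.03. Red points gather in the ribosomal, mitochondrial and respiratory rows, and most other rows hold none or 1.

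Further rises fell outside these groups. Scgb1c1, a secretoglobin, was at 59.7, 53.7 and 85.2 CPM in controls and 112, 189, 111 and 107 CPM in nanoplastics mice (0.97, SE 0.21, adjusted p = 0.0273), with nanoplastics mouse 2 far above the rest. With the length trend removed Scgb1c1 was at 0.61 (adjusted p = 0.219). Matr3, a nuclear matrix protein (0.89, adjusted p = 0.0475), and Nsa2, of ribosome assembly (0.77, adjusted p = 0.0498), also rose. Of 40 genes of oxidative stress and glutathione 3 rose, beside 1.48% of all genes, and all 3 were glutathione transferases. Gsta4, which handles lipid peroxidation products, was at 138, 156 and 208 against 287, 280.2, 227 and 268 CPM (0.67, adjusted p = 0.0303). Mgst3 was at 731, 596 and 745 against 1012, 1039, 974 and 1022 CPM (0.55, adjusted p = 0.0276), and Gstk1 had a log2 change of 0.57 (adjusted p = 0.0362). The list's median was 0.12, and -0.14 with library totals. Cst3, the secreted protease inhibitor cystatin C, rose (0.55, adjusted p = 0.0309). It was the one of 37 autophagy and lysosome genes to rise, beside 1.48% of all genes.

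Lists of rhythm and calcium genes are too short to be told from the 1.93% called among all genes. Of 22 calcium handling genes only Trdn, triadin, which anchors calsequestrin to the release channel, passed, at 959, 1011 and 956 CPM against 1281, 1465, 1370.1 and 1239 CPM (0.46, SE 0.12, adjusted p = 0.0476). Ryr2, the release channel, was at 0.29 (SE 0.16), Atp2a2, the calcium pump SERCA2, at 0.22 (SE 0.16), and its inhibitor Pln at 0.08 (SE 0.12). None of 17 tested ion channel and pump genes passed in edgeR, 5 had an unadjusted p under 0.05 and DESeq2 called 1. Their median was -0.20, and 2 had positive values. Gja1, the gap junction protein connexin 43, was at 115, 126 and 152 against 112, 83.9, 91.1 and 109 CPM, without overlap (-0.39, SE 0.16, adjusted p = 0.193). Cacna1c (-0.01), Kcnj2 (-0.08) and Camk2d (-0.35) did not pass, and Kcnq1 and Kcnh2 were too low to be tested.

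Stress markers of the ventricle gave no call in the sums among 24 genes in edgeR, 3 had an unadjusted p under 0.05 and DESeq2 called 2. This list and the others of this paragraph are too short for 0 calls to be told from the 1.93% called among all genes. Nppa, atrial natriuretic peptide, stood at 185, 66.2 and 247 CPM in controls and 145, 142, 294 and 579 CPM in nanoplastics mice, with broad overlap (0.82, SE 0.72, adjusted p = 0.659). Its highest value was in mouse 4, whose sum also held the atrial muscle transcripts. In the right ventricle without the library of 4662 counts Nppa was higher with nanoplastics and passed the test there, at 256, 107 and 249 CPM in controls and 395, 507 and 427 CPM in nanoplastics mice 1, 3 and 4 (1.12, SE 0.25, adjusted p = 0.0322), without overlap. In the left ventricle it was at 0.96 (SE 1.08, adjusted p = 0.749). Nppb was at 0.23 (SE 0.32), Myh7 at 0.77 (SE 0.40), Myh6 at 0.61 (SE 0.37) and Ankrd1 at -0.19 (SE 0.24). The fibrosis genes Col3a1 (-0.14) and Postn (-0.14) did not pass, and Col1a1 and Hmox1 were too low to be tested. None of 20 genes of p53, arrest and apoptosis passed in edgeR, 1 had an unadjusted p under 0.05 and DESeq2 called 0. Their median was -0.37, and 1 of the 20 had a positive value. The list of 18 genes of endoplasmic reticulum stress had 0 calls, 3 had an unadjusted p under 0.05 and DESeq2 called 0. In the list of 12 inflammation genes 0 passed, 0 had an unadjusted p under 0.05 and DESeq2 called 0. Of 25 genes of interferon and MHC class I 0 passed, 2 had an unadjusted p under 0.05 and DESeq2 called 1. Of 45 genes of ubiquitin and proteasome 0 passed, 15 had an unadjusted p under 0.05 and DESeq2 called 1. Cdkn1a, the cell cycle inhibitor p21, was at -0.41 (adjusted p = 0.485), and Gadd45a at -1.09 (adjusted p = 0.06).

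Genes that had stood out in sums over whole hearts did so in part. Neat1, Cox6a2, Ppara, Gsta4, B3gat3 and Pias4 were called in the ventricles. Rgs2, a brake on G protein signals, stood just outside the threshold at 35.4, 34.2 and 32.9 CPM in controls and 88.0, 40.3, 58.7 and 46.7 CPM in nanoplastics mice (0.80, SE 0.21, adjusted p = 0.0501), without overlap. Csnk2b (0.87, adjusted p = 0.0648), Rarres2 (0.61, adjusted p = 0.0718), Art5 (-1.35, adjusted p = 0.06), Hspb7 (-0.47, adjusted p = 0.0573) and Ankrd9 (-1.15, adjusted p = 0.0597) were near it. The matrix genes Fbln1 (0.52, adjusted p = 0.671) and Efemp1 (0.62, adjusted p = 0.205) and the enzyme gene Inmt (0.52, adjusted p = 0.216) overlapped between the groups. The whole-heart sums share these libraries and are no separate support.

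Each ventricle taken alone gave fewer calls. The left ventricle, 4 against 3 libraries, called 3 of 5440 genes (0.0551%), namely mt-Nd4, mt-Nd2 and Neat1. The right ventricle without the library of 4662 counts, 3 against 3, called 68 of 5201 (1.31%), of which 47 were among the 137. The 105 risen genes had medians of 0.46 in the left ventricle and 0.68 in the right (104 with a value). The 32 fallen genes had medians of -0.80 in the left (29 with a value) and -0.94 in the right (30 with a value). With the right ventricular share as a covariate the medians of the same genes were 0.49 and -0.91, although no call remained. Within the controls the difference of right minus left ventricle had a median of -0.10 on the log2 scale for the risen and -0.02 for the fallen genes. An edgeR test of that difference in the 3 controls, with the mouse as a block, called 0 of the 6858 genes with a value. With 3 mice, and 413436 counts in the left library of control mouse 3, this test could miss real differences between the ventricles. The right ventricular share did not overlap between the groups, so its part in the calls cannot be told apart from that of treatment.

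**Figure D4:**
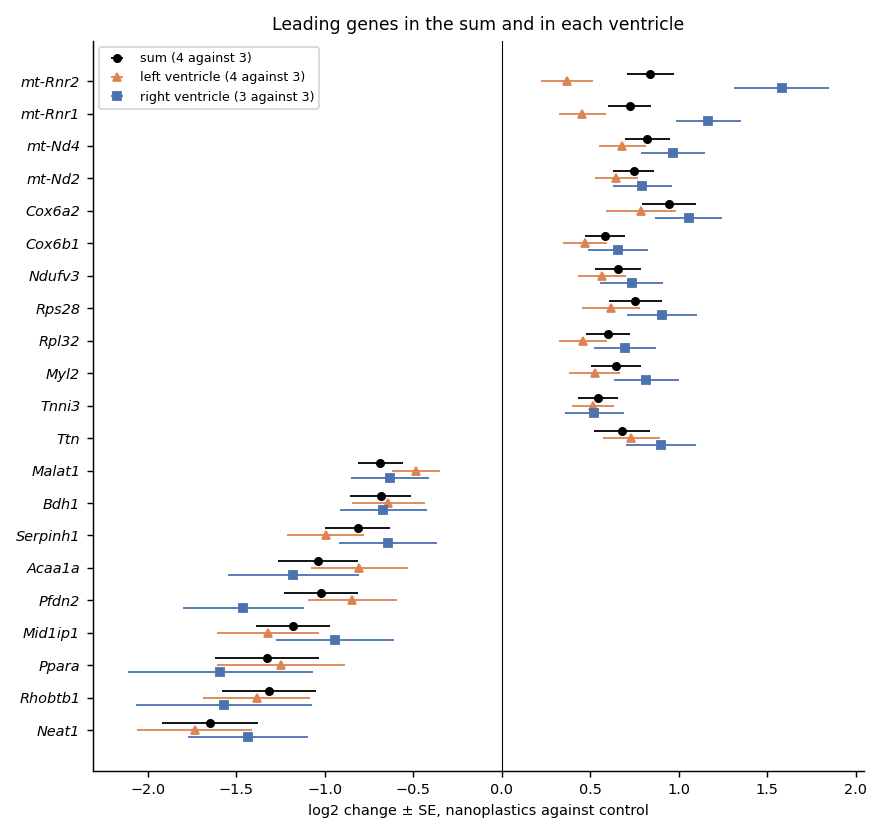
Log2 change with its SE, nanoplastics against control, of 21 called genes in the ventricular sum (black), the left ventricle (orange) and the right ventricle without the library of 4662 counts (blue). All 3 values of each gene lie on the same side of 0, with the widest gap between ventricles in mt-Rnr2.

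The effect of nanoplastics was also compared with that in the atrial section of the same mice. In an edgeR test of the interaction with the mouse as a block, 0 of 6663 genes passed (0%), 278 had an unadjusted p under 0.05, and DESeq2 called 0 as well. The smallest adjusted p was 0.849, for Xirp2, a repeat protein of the intercalated disc, whose log2 change was 0.96 higher in the ventricles (SE 0.21). Of the 137 called genes 135 had a value in this test and 14 had an unadjusted p under 0.05. Ttn was at 0.68 in the ventricles and -0.08 in the atrial section, Ryr2 at 0.29 and -0.34, and Rgs2 at 0.80 and 1.63, each with an adjusted p of 0.999 for the difference. The risen genes had a median of 0.58 in the atrial section and the 28 fallen genes measured there of -0.46, and the controls of both comparisons are the same mice. The atrial libraries may hold uneven amounts of atrial muscle. In them Nppa had a log2 change of 4.71 with a wide SE of 2.78 (adjusted p = 0.586), and the part of uneven content in this comparison was not tested.

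Annotated transcript length moved with the calls. Of the risen genes the median length was 838.5 nt and of the fallen genes 3421.5 nt, beside 3003 nt for all tested genes. Among the 1406 genes with transcripts of 57 to 1581 nt the median log2 change was 0.17, with 86 risen and 3 fallen. In the 4 longer classes of like size the medians were -0.05 to -0.09, with 2 to 8 risen and 6 to 8 fallen genes in each. Once a trend on length had been taken out of every sum, 56 genes were called, 44 higher and 12 lower, 35 of them among the 137. The risen genes then had a median of 0.39 (102 of the 105 with an annotated length) and the 32 fallen genes of -0.77, beside 0.04 over the 7028 genes with a length.

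**Figure D5:**
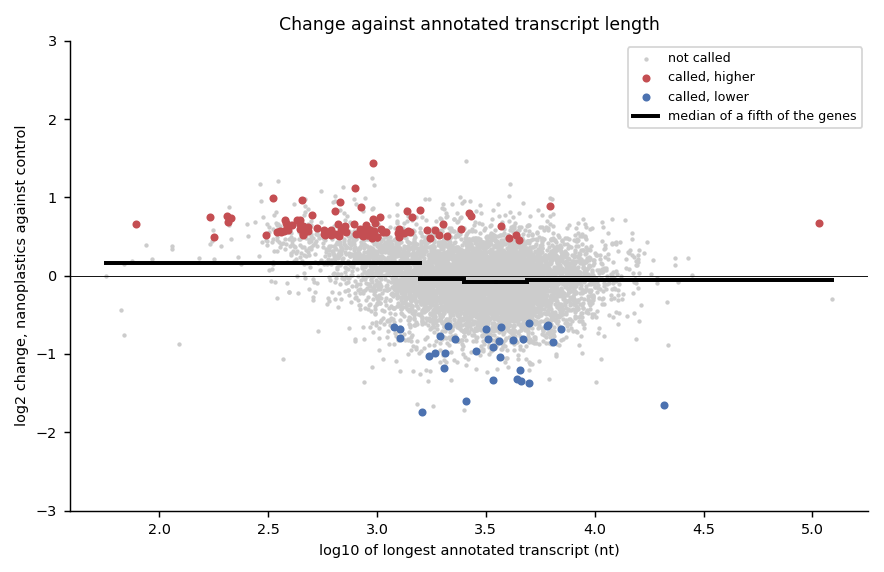
Log2 change, nanoplastics against control, against log10 of the longest annotated transcript of each tested gene (nt). Red points rose, blue points fell, grey points did not pass, and black lines are the medians of 5 classes of about 1406 genes. The first class lies at 0.17 and the others between -0.05 and -0.09.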

How the data were processed

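RNA of right ventricular, left ventricular and atrial sections of 7 mouse hearts was measured in 21 libraries. Per the labels' protocols, hearts were perfused and sectioned, RNA was isolated with TRIZOL, RNA with a poly(A) tail was bound to oligo-dT beads, and a well barcode was added at the 5′ end by template switching before pooled amplification and paired-end sequencing. STAR was used, per the submitters' processing notes. Not given in the sources used here: its version, the genome build, the annotation, the counting program, strand use and whether molecular identifiers were counted. Without identifiers reads are not independent molecules.

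The deposited values are unnormalized counts, given by the authors per gene symbol in 1 table of 20960 genes. Right and left ventricular counts were added per mouse, giving sums of 1045771 to 4481882 counts, where 1 count equals 0.956 to 0.223 CPM. The sums of any pair of mice differed by more than sampling noise (chi-square per degree of freedom at least 1.67). In R 4.3.3, edgeR 4.0.16 kept genes by filterByExpr, scaled by TMM and ran the robust quasi-likelihood test with Benjamini-Hochberg adjustment over all genes tested. Adjusted p-values are from this test unless named otherwise. limma 3.58.1 (voom) and DESeq2 1.42.0 served as alternatives. Library measures were compared by exact two-sided permutation over all 35 splits of the mice. GENCODE M21 gave the longest transcript and type of a gene, and holds 20504 of the symbols. A length was found for 99.1% of tested genes. Promoters were matched by symbol in a RefSeq table. The steps were tested on simulated counts.

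The comparison, the 45 gene lists (1441 genes) and the rule for named genes were chosen with earlier results of these data known. Named are, in either direction, the 10 largest called changes at a mean count of at least 10, predicted genes left out, then of every list up to 4 called genes that rose and up to 4 that fell, a set of heart genes, genes of earlier whole-heart results and the 10 smallest p of the interaction. Some genes of this rule are not reported here. Counts are given for the lists, without a set test. Deviations of same-numbered control and nanoplastics mice had correlations of 0.05, 0.11 and -0.10, and the numbers name different animals, so the test has no block.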

Additional observations from a re-analysis of the deposited data

Results flagged for a closer look

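In groups of 4 mice the highest or lowest value was checked for its gap to the nearest other value, as a share of the range, against Dixon's critical value. Of 96 such groups, 78 genes and 18 library measures in the nanoplastics mice, 10 had a mouse that stood apart, and chance gives about 1 in 20. Nanoplastics mouse 4 stood apart in the summed atrial muscle genes Myl7, Myl4 and Sln at 1121 CPM, in Myh7 at 105.5 CPM, in Mid1ip1 at 11.31 CPM as the lowest value, and in the mitochondrially encoded share at 24.43% as the lowest. Nanoplastics mouse 2 stood apart in Scgb1c1 at 188.9 CPM, in Ankrd9 at 10.61 CPM and, as the lowest, in Art5 at 1.061 CPM. Nanoplastics mouse 3 was lowest in Rps28 at 231 CPM and in Ndufa2 at 2085 CPM, and nanoplastics mouse 1 was highest in Cox8b at 4144 CPM.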

How the results depend on the processing

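The 137 calls (105 higher, 32 lower) came to 430 with library totals (14 higher, 416 lower), 260 with DESeq2 (225 and 35), 217 with the atrial libraries added (152 and 65), 68 in the right ventricle alone without its shallow library, 39 with that library, 3 in the left ventricle alone, 47 with both ventricles as separate libraries, 56 with the length trend removed and 0 with the right ventricular share as a covariate. Sums thinned to the smallest total, chosen after seeing the data, gave 19 calls (18 higher and 1 lower). Leaving out 1 mouse gave 2 to 177 calls, the lowest without control mouse 2. Without control mouse 1 there were 124 calls (118 higher and 6 lower). Fewer mice, genes or counts enter several of these by construction. The right ventricular share did not overlap between the groups, so as a covariate it cannot be fully told apart from treatment. The cause of the other differences was not tested. Without a low-count filter 116 genes were called (52 and 64). With the replicate number as a block 192 genes were called (169 and 23), 106 of them among the 137; the numbers do not pair the animals. The interaction with the atrial section had 0 calls in all alternatives except without a low-count filter, where it had 1. No named gene that was called changed direction in an alternative, and 46 named genes kept or lost their call as follows: 46 kept it with DESeq2, 36 with the block, 22 with library totals, 21 of 45 with length removed, and 2 of 44 without control mouse 2. Of 43 list medians 17 changed sign with library totals and 9 with length removed; among lists with a risen gene, those of Z-disc, oxidative stress, calcium handling, mitochondrial ribosomal and mitochondrial import genes belonged to the 17. Depth limited the low genes: 3 counts equal 0.669 to 2.87 CPM.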

Other observations

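Blood genes were higher in value in the nanoplastics sums without passing the test. Hbb-bs, a β-globin, had a log2 change of 0.94 (adjusted p = 0.489) and Hba-a1, an α-globin, of 1.13 (adjusted p = 0.57), and the 6 tested red cell genes had a median of 0.87 that ranged from 0.38 to 1.42 when 1 mouse was left out. Hearts were perfused, per the labels' protocols, and globin copies are near-identical, so these genes are uncertain.

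Of 12 tested genes of the smooth muscle and pericyte list none passed in edgeR, beside 1.93% of all genes. In that list 0 had an unadjusted p under 0.05 and DESeq2 called 0, although the summed list did not overlap between groups. Rgs5, a pericyte gene, stood at 366, 333 and 346 CPM of the library total in controls and 194, 245, 301 and 132 CPM in nanoplastics mice. The groups overlapped in Myh11, at 1.53 to 3.44 CPM in controls and 1.48 to 4.78 CPM in nanoplastics mice. They also overlapped in Acta2, at 7.65 to 25.2 CPM and 3.82 to 18.1 CPM. Without Des, which heart muscle also expresses, the list stood at 511 to 565 CPM in controls and 307 to 475 CPM in nanoplastics mice (exact permutation p = 0.0571, adjusted p = 0.129), a split of the list made after seeing the data. In the controls Rgs5 gave most of that sum.

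Among immediate early genes Nr4a1 had the largest value, 1.46, without passing (adjusted p = 0.362).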
